A study of Mus musculus with 6 samples.

Results

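SOX and forkhead (FOX) genes encode transcription factors that set cell identity, and their RNA levels are described here in murine small cell lung cancer (SCLC) cells with and without targeting of Erbb2. The genes were chosen by name alone, as the rows whose symbol is Sox or Foxa to Foxs followed by a number. This gave 39 of the 20273 rows of the deposited table, 10 SOX and 29 FOX genes.

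SOX proteins bind DNA through a high-mobility-group (HMG) box like that of SRY and bend it, and they are sorted into groups by the sequence of that box. Group B factors such as SOX2 maintain neural and endodermal progenitors, group C factors such as SOX4 and SOX11 act in neuronal and mesenchymal progenitors, group D factors work mainly as cofactors, and SOX9 of group E directs cartilage and epithelial progenitor programs. FOX proteins bind DNA through a winged-helix domain. FOXA factors open closed chromatin in lung and gut endoderm, FOXM1 drives genes of mitosis, and FOXO factors leave the nucleus when phosphorylated by AKT, a kinase downstream of receptor tyrosine kinases such as ERBB2.

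RNA was sequenced from 3 libraries of unedited SCLC cells (WT 1 to WT 3) and 3 libraries of SCLC cells in which Erbb2 had been targeted with Cas9 (ERBB2 KO 1 to ERBB2 KO 3). The targeted cells were transfected with a Santa Cruz CRISPR construct, selected with puromycin and sorted as single clones, steps that the labels describe for the knockout and not for the WT cells. Per the methods of the study, its murine SCLC lines came from tumours of mice with conditional loss of Rb1 and Trp53 and were grown in RPMI medium, so both groups share that background. The study calls the libraries of each group biological replicates, but the sources used here name neither the line nor the clone behind each library, so p-values measure the spread between these libraries.

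Levels are given in CPM, the read count of a gene scaled to a library size common to all samples. The totals ran from 8927461 to 13255671 reads, so that 3 reads, taken as the limit that a count of 0 allows, correspond to 0.226 to 0.336 CPM. This limit covers counting error only.

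The libraries sorted by genotype only in part. Xist, the RNA of the inactive X chromosome, stood at 208 and 178 CPM in WT 2 and WT 3 and at 0 to 0.112 CPM in the other 4 libraries. Across 11803 genes the closest pair was ERBB2 KO 2 with ERBB2 KO 3 (r = 0.976). WT 2 with WT 3 came next (r = 0.971). WT 1 was nearest to ERBB2 KO 2 (r = 0.959) and ERBB2 KO 3 (r = 0.955). It was less like WT 3 (r = 0.931) and WT 2 (r = 0.919). ERBB2 KO 1 stood apart from the other ERBB2 KO libraries (r = 0.891 with ERBB2 KO 2 and 0.898 with ERBB2 KO 3). These correlations are a description across genes, which are not replicates. Of 8 fibroblast markers 6 could be read, and they summed to 54.7, 58.1 and 229 CPM across WT 1 to WT 3, against 321, 80.6 and 49.0 CPM across ERBB2 KO 1 to 3. Dcn (267 CPM), Pdgfra (30.5 CPM) and Pdgfrb (15.8 CPM) were highest in ERBB2 KO 1, with at most 22.3, 6.92 and 3.19 CPM elsewhere. The collagen genes were not, with Col1a1 and Col1a2 each at 0.896 CPM in ERBB2 KO 1 and up to 7.65 and 199.8 CPM elsewhere, and Col3a1 at 5.94 CPM and up to 72.3 CPM. Erbb2 itself stood at 10.7, 3.95 and 6.64 CPM across WT 1 to WT 3, against 12.1, 6.19 and 2.80 CPM across ERBB2 KO 1 to 3. The edited position is not given, so this RNA level does not check the knockout. Each result below is therefore given by library.

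The labelled cell type was checked against its markers. Of the 5 neuroendocrine markers that could be read, 3 (Syp, Chgb and Dll3) stayed below 1 CPM in all 6 libraries. Ncam1 was at 121 to 1253 CPM and Uchl1 at 26.6 and 10.7 CPM in WT 2 and WT 3 and at 0.546 CPM or less elsewhere. The epithelial keratin Krt8 stood at 402 to 1060 CPM, while the epithelial cadherin Cdh1 reached 10.0 CPM in WT 3 and no more than 0.336 CPM elsewhere. The endothelial markers summed to at most 0.935 CPM. The 4 immune markers in the table summed to 1.58 to 2.82 CPM in WT and 5.43 to 31.7 CPM in ERBB2 KO libraries. Of these, the leukocyte gene Ptprc reached at most 0.415 CPM and Cd79a at most 0.161 CPM. Lyz2 was at 24.5, 1.02 and 1.77 CPM across ERBB2 KO 1 to 3 and at most 0.377 CPM in WT. Cd68 was at 7.17, 4.41 and 4.88 CPM across ERBB2 KO 1 to 3, against 2.37, 1.53 and 1.21 CPM across WT 1 to WT 3. In bulk RNA, fewer cells of a type and less RNA per cell cannot be told apart.

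Of the 39 genes, 28 (5 SOX and 23 FOX) reached 1 CPM in at least 3 libraries and were tested, and 18 reached 1 CPM in all 6. A further 6 (Sox5, Sox6, Sox11, Sox21, Foxf1 and Foxs1) reached it in 1 or 2 libraries, and 5 (Sox15, Foxj1, Foxl1, Foxp2 and Foxr1) in none.

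**Figure D1:**
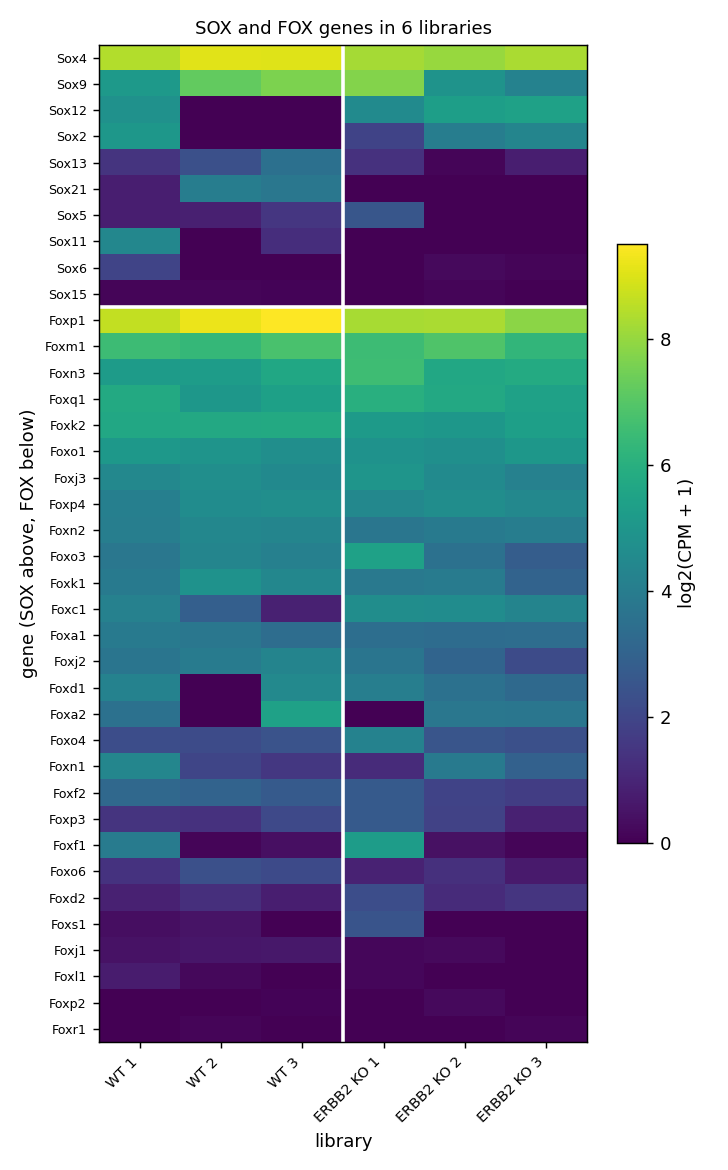
Level of the SOX and FOX genes reported here (rows) in the 6 libraries (columns), coloured by log2(CPM + 1), with SOX above and FOX below the white horizontal line and WT left of the vertical one. Foxp1 (233 to 730 CPM) and Sox4 (266 to 540 CPM) are bright in every library, while rows such as Sox12, Sox2 and Foxa2 switch between dark and bright from library to library.

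Several of these genes were well covered in some libraries and had few or no reads in others. A gene was counted as switching where it had 3 reads or fewer in at least 1 library and 5 CPM or more in another. This held for 9 of the 29 SOX and FOX genes that reached 5 CPM (31.0%), among them Sox2, Sox11, Sox12, Sox13, Sox21, Foxa2, Foxd1 and Foxf1, beside 756 of 10511 genes over the whole table (7.19%). The 9 were 5 of 7 SOX genes and 4 of 22 FOX genes. With WT 1, WT 2, WT 3, ERBB2 KO 1, ERBB2 KO 2 or ERBB2 KO 3 left out in turn, 8 or 9 genes switched, against 5.01% to 6.76% of all genes. With WT 2 and WT 3 both left out, 4 of 27 did (14.8%), beside 4.25% of all genes.

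The switch followed no common pattern. WT 2 was at or under 3 reads for 6 of the 9 genes, ERBB2 KO 2 and ERBB2 KO 3 for 4 each, ERBB2 KO 1 for 3, WT 3 for 2 and WT 1 for none. Over all 756 switching genes the libraries fell in much the same order, with 402 in WT 2, 379 in ERBB2 KO 3, 361 in ERBB2 KO 2, 232 in ERBB2 KO 1, 225 in WT 3 and 106 in WT 1. Sox21 was the only 1 of the 9 whose absent libraries were exactly the ERBB2 KO group, beside 18 of the 756 switching genes (2.38%).

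The starts of 3 of these genes are shown because the libraries at 0 differ between them: WT 2 and WT 3 for Sox12 and Sox2, and the 3 ERBB2 KO libraries for Sox21. Each line runs 5′ to 3′ on the strand of the gene, from 250 bases before to 50 bases after the annotated start (RefSeq, build GRCm38.p6), with CpG dinucleotides, the bases at which mammalian DNA is methylated, in capitals. Sox12 lies at chr2:152397997-152398296 on the minus strand, Sox2 at chr3:34649745-34650044 on the plus strand and Sox21 at chr14:118236981-118237280 on the minus strand.
Sox12: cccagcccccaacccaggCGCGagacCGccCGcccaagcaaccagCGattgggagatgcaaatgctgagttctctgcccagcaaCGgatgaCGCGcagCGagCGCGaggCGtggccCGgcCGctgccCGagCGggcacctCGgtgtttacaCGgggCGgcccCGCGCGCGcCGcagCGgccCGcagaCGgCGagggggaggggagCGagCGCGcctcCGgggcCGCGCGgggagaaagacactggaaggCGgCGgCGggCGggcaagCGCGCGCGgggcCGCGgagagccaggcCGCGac
Sox2: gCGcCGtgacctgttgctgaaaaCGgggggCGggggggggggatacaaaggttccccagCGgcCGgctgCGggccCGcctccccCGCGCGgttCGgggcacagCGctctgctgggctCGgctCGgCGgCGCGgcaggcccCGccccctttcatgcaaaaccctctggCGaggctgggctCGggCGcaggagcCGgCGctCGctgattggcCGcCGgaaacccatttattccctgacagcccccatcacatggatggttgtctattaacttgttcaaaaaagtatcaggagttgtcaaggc
Sox21: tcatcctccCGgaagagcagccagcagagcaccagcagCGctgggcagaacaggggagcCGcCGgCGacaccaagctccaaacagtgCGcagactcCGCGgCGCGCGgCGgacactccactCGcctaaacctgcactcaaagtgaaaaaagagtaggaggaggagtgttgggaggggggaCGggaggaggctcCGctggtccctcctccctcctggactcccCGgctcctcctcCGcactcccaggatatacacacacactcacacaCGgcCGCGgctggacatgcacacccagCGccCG
These windows hold 47 CpG in Sox12, 27 in Sox2 and 22 in Sox21, at a GC content of 76.7%, 66.3% and 65.7%. No methylation was measured in these samples.

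RefSeq windows were found for 26 of the 39 genes, and the first listed window of each gene was used, in the backgrounds too, although 4 of the 26 (Foxa2, Foxp1, Foxp3 and Sox6) have several. An observed-to-expected CpG ratio of at least 0.6 was reached by 19 of the 26 (73.1%), beside 36.5% of 27025 genes with a window and 77.1% of the 8659 of them that were tested. Of the 7 switching genes with a window, 6 reached it. The forkhead word TGTTTAC, searched on both strands, occurred in the windows of Foxa1 and Sox12, 2 of 26 (7.69%), beside 3.55% of all genes and 2.45% of tested genes. The SOX word ACAAT occurred in 3 of 26 (11.5%), beside 31.6% of all genes and 19.3% of tested genes. Its longer form AACAAT, which contains it, occurred in 0 of 26, beside 10.9% and 5.43%. With every listed window counted, ACAAT was found for 5 of the 26 genes (Foxn1, Foxp1, Sox5, Sox6 and Sox15) and AACAAT for 2 (Foxp1 and Sox6). A match of letters is a description and does not mark a bound site.

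Between ERBB2 KO and WT, 0 of the 28 tested genes and 0 of all 11803 genes (0%) passed an adjusted p of 0.05 by limma. The lowest adjusted p was 0.321 among the 28 genes and 0.267 over all genes. At an unadjusted p below 0.05, 8 SOX and FOX genes were lower in ERBB2 KO (among them Foxp1, Foxk2, Sox4, Sox13, Foxo6, Foxf2 and Foxj2), beside a background of 7.27% of all genes, and 2 were higher (Sox12 and Foxc1), beside 5.96%. Together these were 10 of 28 (35.7%), against 13.2% of all genes. By limma's voom on the recovered reads 0 genes passed the adjusted threshold and 7 of the 28 had an unadjusted p below 0.05, beside 1553 of all genes (13.2%). The 10 stayed at 10 without WT 1 (beside 21.0% of all genes) and without ERBB2 KO 1 (16.6%). They fell to 3 without WT 2 (5.24%), 3 without WT 3 (6.85%), 4 without ERBB2 KO 2 (9.72%), 4 without ERBB2 KO 3 (9.42%) and 0 without both WT 2 and WT 3 (2.14%), so the count over all genes fell in the same fits.

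The groups did not overlap for 9 of the 28 genes (32.1%, against 19.4% of all genes). In 7 the ERBB2 KO libraries were all lower, beside a background of 10.6%, and in 2 (Foxc1 and Foxn3) all higher, beside 8.76%. Of the untested genes, Sox21 and Foxj1 did not overlap either, but the backgrounds above cover tested genes only. Foxj1 had 4, 6 and 7 reads across WT 1 to WT 3, against 1, 2 and 0 across ERBB2 KO 1 to 3, near the limit of 3 reads. The median difference over the 28 genes was -0.09 on the log2(CPM + 1) scale and over all genes -0.04, with 12 of the 28 higher and 16 lower in ERBB2 KO. This scale understates the change of genes near 1 CPM.

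Weighting each library by how closely it followed its own group in these same data changed these counts. No separate measure of library quality was used. With limma's array quality weights, 11 of the 28 genes passed an adjusted p of 0.05, beside 1759 of all genes. The 8 that were lower included Foxf2, Foxj2, Foxo6, Foxp1, Sox4, Sox9 and Sox13, beside a background of 9.04%, and the 3 that were higher were Foxc1, Sox2 and Sox12, beside 5.86%. The weights ran from 0.268 for ERBB2 KO 1 and 0.418 for WT 1 to 1.91 for ERBB2 KO 3 and 3.05 for WT 3, so WT 1, the WT library most like the ERBB2 KO libraries, counted least in its group.

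**Figure D2:**
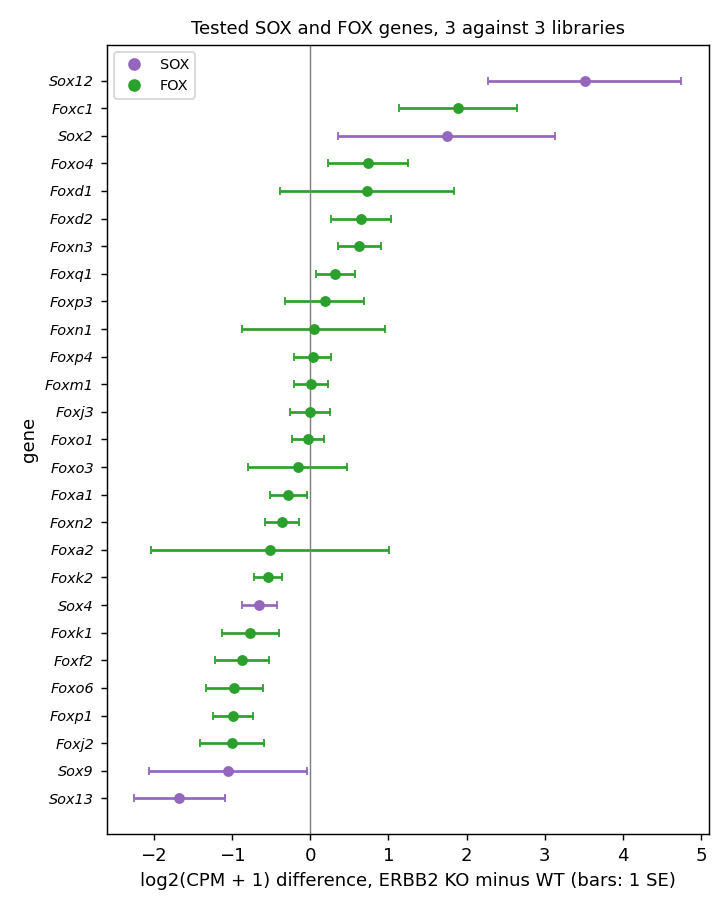
Difference of the tested genes reported here between ERBB2 KO and WT (3 libraries each) on the log2(CPM + 1) scale, as limma's estimate with bars of 1 standard error, SOX in purple and FOX in green. Estimates run from -1.67 for Sox13 to 3.51 for Sox12, and the genes with the largest estimates also have wide bars.

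Sox2, the group B factor that maintains progenitors and is amplified in some human SCLC, stood at 32.1 CPM in WT 1, at 0 in WT 2 and WT 3, and at 2.80, 15.2 and 19.2 CPM across ERBB2 KO 1 to 3. The WT libraries thus lay on both sides of the ERBB2 KO libraries, with 353 reads in WT 1 and none in the other WT libraries. The difference was 1.74 ± 1.39 (SE; limma adjusted p = 0.592), and with WT 1 as the only WT library it turned to -1.62 ± 1.02. Sox2 lies inside Sox2ot, a long noncoding RNA gene that reached at most 0.312 CPM.

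Sox21, a group B factor known mainly as a repressor that counters SOX2-type activation, showed another arrangement. It stood at 0.728, 15.4 and 12.7 CPM across WT 1 to WT 3, against 0 in each of the 3 ERBB2 KO libraries. Pooled over the WT libraries it was at 10.0 CPM (367 reads), at least 101-fold higher than the 0.0989 CPM that 3 reads over the ERBB2 KO group would give. WT 1 held 8 of those 367 reads. Sox21 reached 1 CPM in 2 libraries and was not tested.

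The group C genes differed from each other in their pattern. Sox4, which is often raised in epithelial tumours, was at 337, 540 and 533 CPM across WT 1 to WT 3, against 298, 266 and 316 CPM across ERBB2 KO 1 to 3. Its groups did not overlap, with means of 470 ± 115 and 293 ± 25.3 CPM (SD, n = 3 each), but WT 1 lay close to the ERBB2 KO libraries. The difference was -0.65 ± 0.22 (limma unadjusted p = 0.0207, adjusted p = 0.350). With WT 2 and WT 3 left out it was -0.20 ± 0.26.

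Sox12, a weaker activator of the same group, was at 27.2 CPM in WT 1, at 0 in WT 2 and WT 3, and at 22.3, 39.5 and 43.1 CPM across ERBB2 KO 1 to 3. The 0 in WT 2 and WT 3 allows up to 0.242 and 0.226 CPM. WT 1 lay within the ERBB2 KO range, so the groups overlapped. The difference was 3.51 ± 1.23 (limma unadjusted p = 0.0239, adjusted p = 0.350). Without WT 1 it was 5.11 ± 0.36 (limma adjusted p = 0.00460), the only SOX or FOX gene of 90 genes higher in ERBB2 KO (0.763% of genes) that passed in that fit. The WT libraries left there, WT 2 and WT 3, both had 0 Sox12 reads and so add no spread to the SE. They are also the libraries with Xist RNA, so genotype and that split cannot be told apart in that fit. With WT 1 as the only WT library the Sox12 difference was 0.30 ± 0.47.

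Sox11, the group C gene of neuronal progenitors, was at 20.4 CPM in WT 1, 0 in WT 2 and 1.36 CPM in WT 3, and at 0 in all 3 ERBB2 KO libraries. Of its 242 WT reads, 224 came from WT 1. The pooled WT level of 6.60 CPM was at least 66.8-fold higher than the limit of 3 reads over the ERBB2 KO group. Thus WT 1 held Sox2, Sox11 and Sox12 together, WT 2 held none of the 3, and the ERBB2 KO libraries held Sox2 and Sox12 without Sox11.

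Of 6 genes linked to SOXC activity (lists of related genes were taken from general knowledge), 5 were tested, with 2 higher and 3 lower in ERBB2 KO and a median difference of -0.58. Tubb3, a neuronal tubulin, was at 2.82, 8.06 and 9.96 CPM across the WT libraries, against 1.68, 3.14 and 1.77 CPM across the ERBB2 KO libraries (-1.21 ± 0.45, limma adjusted p = 0.350). Of 10 genes linked to SOXB1 activity 4 were in the table and 1, Nes, was tested. Nes, an intermediate filament of neural progenitors, was at 43.4, 437 and 286 CPM across WT 1 to WT 3, against 78.0, 9.58 and 24.7 CPM across ERBB2 KO 1 to 3 (-2.67 ± 0.99, limma adjusted p = 0.350). It was highest in WT 2 and WT 3, the libraries at 0 for Sox2.

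Among group D genes, Sox13 was at 1.73, 4.03 and 10.3 CPM across WT 1 to WT 3, against 1.57, 0.0848 and 0.727 CPM across ERBB2 KO 1 to 3. The groups did not overlap, although WT 1 and ERBB2 KO 1 differed by 19 against 14 reads. The difference was -1.67 ± 0.58 (limma unadjusted p = 0.0226, adjusted p = 0.350). Sox5 and Sox6, whose products act with SOX9 in cartilage, were low. Sox5 reached 1 CPM in WT 3 (1.81 CPM) and ERBB2 KO 1 (4.82 CPM), with 0 in ERBB2 KO 2 and ERBB2 KO 3, and Sox6 in WT 1 alone (2.82 CPM).

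Sox9, the group E factor of cartilage and of distal lung epithelial progenitors, varied 12.4-fold between libraries. It was at 33.9, 149 and 198 CPM across WT 1 to WT 3, against 216, 28.3 and 17.4 CPM across ERBB2 KO 1 to 3. WT 2, WT 3 and ERBB2 KO 1 were high and the other 3 libraries low, so each group held both states. The difference was -1.05 ± 1.01 (limma adjusted p = 0.656). It was -2.12 ± 0.72 without ERBB2 KO 1 and 0.49 ± 1.41 without WT 2 and WT 3.

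Of 11 cartilage genes that SOX9 and SOX5/6 are known to control, 4 were in the table and 1, Acan, was tested. Acan, the main cartilage proteoglycan, was at 5.92, 107 and 175 CPM across WT 1 to WT 3, against 6.27, 0 and 0.208 CPM across ERBB2 KO 1 to 3 (-4.63 ± 1.29, limma unadjusted p = 0.00853, adjusted p = 0.328). In ERBB2 KO 1, where Sox9 was high, Acan stood near its level in WT 1. Col11a1, a fibrillar collagen of cartilage named after its values were seen, had reads only in WT 2 (3.87 CPM) and WT 3 (12.5 CPM). Sox15 had at most 1 read in any library, and its gene overlaps Mpdu1.

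**Figure D3:**
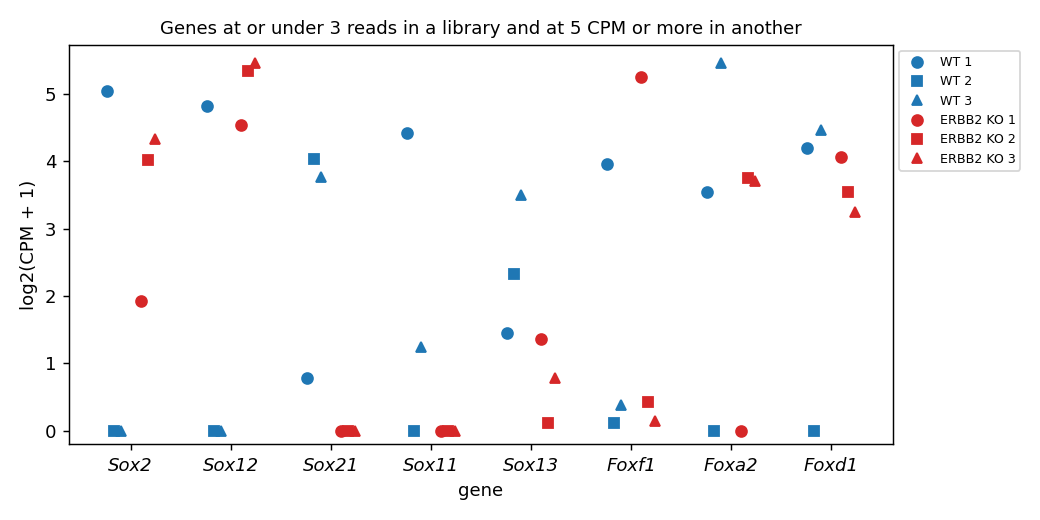
Level of the genes reported here with 3 reads or fewer in a library and at least 5 CPM in another, on the log2(CPM + 1) scale, with 1 point per library (WT in blue, ERBB2 KO in red; circles, squares and triangles mark replicates 1, 2 and 3). Sox12 and Sox2 are at 0 in WT 2 and WT 3, Foxa2 in WT 2 and ERBB2 KO 1, and Sox21 in the 3 ERBB2 KO libraries.

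The FOXA pair, which prepares chromatin in endoderm, was split. Foxa1 was steady at 12.0 ± 2.08 CPM across the WT libraries, against 9.61 ± 0.267 CPM across the ERBB2 KO libraries (SD, n = 3 each; difference -0.28 ± 0.24, limma adjusted p = 0.615). Foxa2 was at 10.7, 0 and 42.9 CPM across WT 1 to WT 3, against 0, 12.6 and 12.2 CPM across ERBB2 KO 1 to 3. Its absence from WT 2 and ERBB2 KO 1 ran across the genotypes, and the difference was -0.51 ± 1.52 (limma adjusted p = 0.899). Of 11 partners and targets of FOXA in lung endoderm 5 were in the table and 2 were tested. Gata6, a factor of lung and gut endoderm, differed by -0.11 ± 0.46.

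Foxq1, Foxf2 and Foxc1 lie in this order within a cluster on chromosome 13, with 64839 bases between Foxq1 and Foxf2 and 175239 bases between Foxf2 and Foxc1. Foxc1, a factor of mesenchyme and vessels, was at 17.2, 6.28 and 0.830 CPM across WT 1 to WT 3, against 24.1, 23.8 and 18.7 CPM across ERBB2 KO 1 to 3. The groups did not overlap, WT 1 came close to ERBB2 KO 3, and WT 3 lay far below the rest. The difference was 1.89 ± 0.75 (limma unadjusted p = 0.0392, adjusted p = 0.361), and with WT 2 and WT 3 left out it was 0.34 ± 0.35.

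Its neighbour Foxf2, a factor of gut and lung mesenchyme, was at 8.28, 7.17 and 5.51 CPM across WT 1 to WT 3, against 5.49, 2.80 and 2.29 CPM across ERBB2 KO 1 to 3. Here the ERBB2 KO libraries were the lower ones, with WT 3 and ERBB2 KO 1 almost level. The difference was -0.87 ± 0.35 (limma unadjusted p = 0.0389, adjusted p = 0.361), and with WT 2 and WT 3 left out it was -1.10 ± 0.55. Foxq1, an epithelial factor, ran from 31.7 to 53.6 CPM in WT and from 42.9 to 62.3 CPM in ERBB2 KO libraries, with a difference of 0.32 ± 0.25 (limma adjusted p = 0.587).

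Foxf1, which hedgehog signals induce in lung mesenchyme, had reads mainly in 2 libraries, WT 1 (14.7 CPM, 161 reads) and ERBB2 KO 1 (37.1 CPM, 331 reads), with 1 to 4 reads in each other library. Pdgfra and Pdgfrb were likewise highest in ERBB2 KO 1 and next highest in WT 1 (6.92 and 3.19 CPM), while Dcn was next highest in WT 3 and Col1a1, Col1a2 and Col3a1 had other libraries as their highest. The summed fibroblast markers stood at 321 CPM in ERBB2 KO 1 and at 54.7 CPM in WT 1. They stood at 229 CPM in WT 3, where Foxf1 had 4 reads and Col1a2 alone was at 199.8 CPM. The part of fibroblasts in this was not tested. Foxl1, which lies 39530 bases from Foxf1, reached at most 0.637 CPM (7 reads), in WT 1. Of 8 genes of the FOXF and hedgehog program in mesenchyme 5 were in the table, and the 2 tested, Gli3 and Ptch1, differed by -0.35 ± 0.28 and 0.41 ± 0.34.

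Foxd1, a factor of kidney and lung stroma, was at 17.4, 0 and 21.2 CPM across WT 1 to WT 3, against 15.8, 10.7 and 8.52 CPM across ERBB2 KO 1 to 3. WT 2 alone lacked it, and the difference was 0.73 ± 1.11 (limma adjusted p = 0.796), or -0.71 without WT 2. Foxd2 was low, at 1.01 ± 0.384 and 2.28 ± 1.34 CPM. Foxs1, known from perivascular cells and neurons, reached 1 CPM in ERBB2 KO 1 alone (4.48 CPM).

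Foxm1, the activator of mitotic genes, did not separate the groups. It was at 93.3 ± 15.4 CPM across the WT libraries, against 94.6 ± 20.3 CPM across the ERBB2 KO libraries (SD, n = 3 each), with a difference of 0.01 ± 0.22 (limma adjusted p = 0.986). Its level ran from 76.4 to 117 CPM over all 6 libraries, with the highest and the lowest value both in the ERBB2 KO group.

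Of 16 mitotic genes linked to FOXM1, all were tested, with 4 higher and 12 lower in ERBB2 KO, a median difference of -0.27, and 3 lower at an unadjusted p below 0.05, beside a background of 7.27% of all genes. Bub1, a spindle checkpoint kinase, was at 74.4, 75.7 and 77.4 CPM across the WT libraries, against 40.5, 55.2 and 51.3 CPM across the ERBB2 KO libraries, without overlap (-0.63 ± 0.18, limma unadjusted p = 0.0104, adjusted p = 0.336). Kif20a, a mitotic kinesin, was at 74.7 ± 16.7 and 48.4 ± 5.06 CPM, and Cenpa, the centromeric histone, at 149 ± 2.04 and 100.2 ± 33.4 CPM. Plk1, a mitotic kinase, ran otherwise, at 80.8, 8.46 and 9.20 CPM across WT 1 to WT 3, against 55.9, 65.5 and 85.8 CPM across ERBB2 KO 1 to 3.

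The FOXO genes, whose products are held out of the nucleus by AKT, showed no common direction. Foxo1 was level at 28.9 ± 3.70 CPM across the WT libraries, against 28.3 ± 3.06 CPM across the ERBB2 KO libraries (-0.03 ± 0.20). Foxo3 and Foxo4 were highest in ERBB2 KO 1, at 43.0 and 17.6 CPM, against at most 19.3 and 4.66 CPM in any other library. Their differences were -0.16 ± 0.63 and 0.74 ± 0.51, and without ERBB2 KO 1 they were -0.92 ± 0.32 and 0.14 ± 0.28. Foxo6 was low and without overlap between the groups, at 3.02 ± 1.24 CPM across the WT libraries, against 1.02 ± 0.463 CPM across the ERBB2 KO libraries (-0.97 ± 0.37, limma unadjusted p = 0.0319, adjusted p = 0.350). RNA levels do not show where FOXO proteins were in the cell.

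All 18 FOXO target genes were tested, with 9 higher and 9 lower in ERBB2 KO and a median difference of 0.01. Cdkn1b, the cell cycle inhibitor p27, was at 102, 147 and 151 CPM across WT 1 to WT 3, against 78.1, 62.4 and 39.8 CPM across ERBB2 KO 1 to 3. Its groups did not overlap, with the lower values in ERBB2 KO (-1.17 ± 0.29, limma unadjusted p = 0.00463, adjusted p = 0.321), and it was the only 1 of the 18 with an unadjusted p below 0.05. Of 10 kinases and regulators of FOXO 9 were tested, 2 higher and 7 lower, with a median of -0.15. Akt1 was at 122, 180 and 168 CPM across WT 1 to WT 3, against 126, 94.2 and 111 CPM across ERBB2 KO 1 to 3 (-0.50 ± 0.21, limma adjusted p = 0.377).

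Foxp1, a factor of lung epithelium and B cells, had the smallest p of the 28 genes. It was at 401, 604 and 730 CPM across WT 1 to WT 3, against 310, 317 and 233 CPM across ERBB2 KO 1 to 3. The groups did not overlap, with means of 578 ± 166 and 287 ± 46.6 CPM (SD, n = 3 each), and WT 1 was again the WT library nearest to the ERBB2 KO libraries. The difference was -0.98 ± 0.26 (limma unadjusted p = 0.00598, adjusted p = 0.321). It was -1.22 ± 0.21 without WT 1 (adjusted p = 0.0580 by limma) and -0.50 ± 0.30 with WT 1 as the only WT library.

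The other FOXP genes did not follow it. Foxp4 was at 21.5 ± 4.69 and 21.7 ± 2.13 CPM (0.03 ± 0.24), and Foxp2 had at most 2 reads. Foxp3, the factor of regulatory T cells, was at 0.831 to 5.49 CPM, highest in ERBB2 KO 1, but its gene overlaps Ccdc22 (up to 27.3 CPM). The strand of the counting is not given, so reads of the pair cannot be told apart.

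The tested FOXK, FOXN and FOXJ genes had reads in every library. Foxk2, which represses autophagy genes, was at 51.8, 52.0 and 53.5 CPM across WT 1 to WT 3, against 35.3, 31.6 and 40.7 CPM across ERBB2 KO 1 to 3. The means were 52.4 ± 0.930 and 35.9 ± 4.57 CPM (SD, n = 3 each), and here WT 1 stood with the other WT libraries. The difference was -0.54 ± 0.18 (limma unadjusted p = 0.0193, adjusted p = 0.350), and with WT 2 and WT 3 left out it was -0.53 ± 0.31. Its paralog Foxk1 was at 20.6 ± 7.16 and 11.7 ± 3.99 CPM (-0.76 ± 0.36, limma adjusted p = 0.410).

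Foxn3, a checkpoint suppressor, was higher in each ERBB2 KO library, at 92.5, 50.7 and 54.7 CPM against 36.5, 37.3 and 49.6 CPM in WT 1 to WT 3. WT 3 and ERBB2 KO 2 were almost level, and the difference was 0.63 ± 0.28 (limma adjusted p = 0.382), or 0.36 ± 0.21 without ERBB2 KO 1. Foxn2 was at 15.8, 20.1 and 18.9 CPM across the WT libraries, against 12.4, 14.2 and 15.3 CPM across the ERBB2 KO libraries, also without overlap (-0.36 ± 0.22, limma adjusted p = 0.490). Foxn1, the factor of thymic epithelium and skin, was at 19.4, 2.98 and 1.89 CPM across WT 1 to WT 3, against 1.23, 13.9 and 6.75 CPM across ERBB2 KO 1 to 3. It was high in WT 1, ERBB2 KO 2 and ERBB2 KO 3, the libraries in which Sox9 was low.

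Foxj2 was at 11.9, 14.6 and 18.4 CPM across WT 1 to WT 3, against 12.0, 7.38 and 3.53 CPM across ERBB2 KO 1 to 3. WT 1 and ERBB2 KO 1 were level, and the difference was -0.996 ± 0.411 (limma unadjusted p = 0.0449, adjusted p = 0.368). Foxj3 was at 22.6 ± 2.30 and 23.1 ± 6.43 CPM, with a difference of -0.0016 ± 0.25. Foxj1, the master factor of multiciliated cells, reached at most 0.528 CPM, and of 10 multiciliated cell genes 5 were in the table and 1 was tested. That gene, Ccdc39, was at 0.455, 0 and 0.226 CPM across WT 1 to WT 3, against 2.69, 1.53 and 1.04 CPM across ERBB2 KO 1 to 3. The difference was 1.14 ± 0.35 (limma adjusted p = 0.341). Ccdc39 reached 1 CPM in the ERBB2 KO libraries only and so was tested through the group in which it was higher. Its direction is therefore no separate result, and its WT levels lay near the limit of 3 reads. Foxr1 had at most 1 read in any library.

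**Figure D4:**
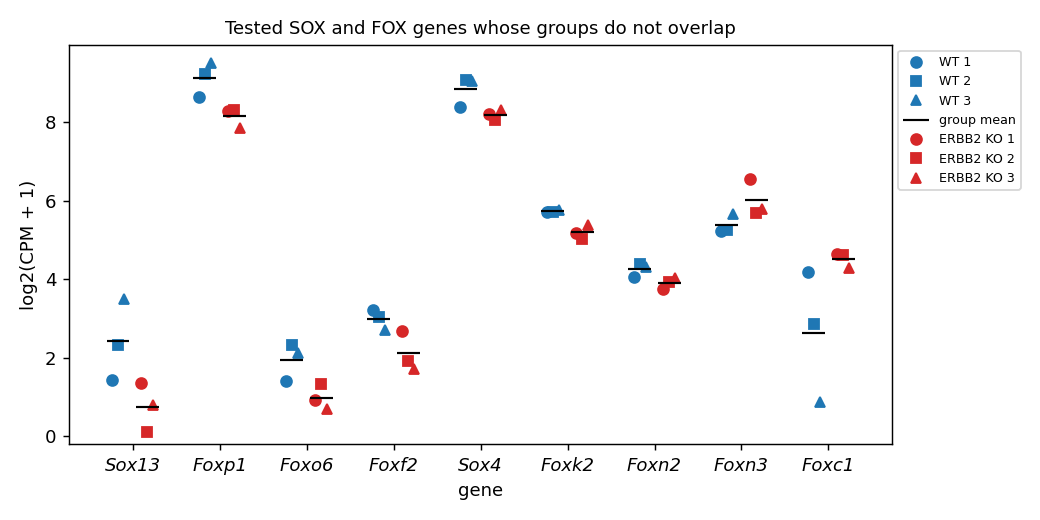
Tested SOX and FOX genes whose groups do not overlap, on the log2(CPM + 1) scale, with 1 point per library (WT in blue, ERBB2 KO in red; circles, squares and triangles mark replicates 1, 2 and 3) and a black line at each group mean. In 7 genes the ERBB2 KO libraries are lower and in Foxn3 and Foxc1 higher. WT 1 (blue circle) is the WT library nearest to the ERBB2 KO group in all but Foxf2 and Foxn3, where WT 3 is. For Foxk2 the WT libraries lie close together.

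The spread between libraries was wide for SOX genes in particular. The median span from the lowest to the highest library was 3.56 log2 units for the 5 tested SOX genes and 1.63 for the 23 tested FOX genes, beside 1.04 over all tested genes. A span of at least 3 log2 units was seen in 4 of 5 SOX genes and 5 of 23 FOX genes, 9 of 28 in all (32.1%), beside 6.18% of all tested genes. Low genes can span less on this scale, and the 11 untested genes are not in these counts.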

How the data were processed

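Bulk RNA of 3 WT and 3 ERBB2 KO libraries of murine SCLC cells was measured, with groups taken from the sample titles. The labels name a TruSeq total RNA kit, the methods of the study a Lexogen QuantSeq 3′ kit, and which applied is not settled here. A 3′ kit would tie counts to the ends of genes. The submitters' processing notes name mm10; the aligner, counting tool and strand setting are not given in the sources used here. As deposited, the values are log2 CPM, to which the authors added a small prior. They were taken back to CPM by exponentiation, less the lowest value of 0.179 CPM, and were then whole multiples of 1 read in 100% of cases (within 0.1 of a step), from which library totals were read.

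The 14 rows whose symbols had become dates were kept in totals and left out of tests, and 23 rows that repeat a symbol were kept separate. The 11803 genes that reached 1 CPM in 3 or more libraries were fitted as log2(CPM + 1) by limma 3.58.1 under R 4.3.3 (lmFit, eBayes with trend, no term beside group, two-sided, Benjamini-Hochberg over all genes tested, threshold 0.05). The main fit was also run on simulated counts, drawn independently for each library around a level set per gene and group. Those counts were given no structure between libraries beyond group, unlike these libraries, so they do not show how the fit performs here. Alternatives were pseudocounts of 0.5 and 2 CPM, other filters and scalings, voom, array quality weights, a replicate block and each library left out. An exact permutation test was not used, since 3 against 3 libraries cannot pass the threshold by it.

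The members, gene lists and tests were chosen with earlier results of these data known, and 2 further alternatives were added after seeing the data. Some genes are not reported here but stay in every count. Every other tested SOX or FOX gene is named, with levels by library where the unadjusted p was below 0.05, the groups did not overlap or the span was at least 3 log2 units, and a library reached 5 CPM. Of each list, up to 4 genes with the smallest p could be named. Gene positions and promoter windows are from RefSeq GRCm38.p6, which is mm10.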

Additional observations from a re-analysis of the deposited data

How the results depend on the processing

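No SOX or FOX gene passed an adjusted p of 0.05 by limma under pseudocounts of 0.5 or 2 CPM, no filter, a filter of 5 CPM, quantile normalization, median-of-ratios scaling, voom or the replicate block. The count over all genes was 0 to 146 and of SOX and FOX genes 0 to 1 with 1 library left out (146 and 1 without WT 1, 30 and 0 without ERBB2 KO 1), and 1759 and 11 with array quality weights. Replicate numbers did not pair the libraries (correlations of deviations -0.22, -0.16 and -0.05 between same-numbered libraries), and the replicate block gave 0 genes and 9 SOX and FOX genes at an unadjusted p below 0.05, beside 1286 of 11803 genes (10.9%).

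Of the 28 tested genes 16 kept their direction under every alternative that gave them a value, 12 of them under all 17 run, and 5 of the 28 (4 of the 16, Foxd2, Foxo4, Foxo6 and Sox13) had no value under the filter of 5 CPM. Quantile normalization turned Foxj3 to 0.061 and Foxo1 to 0.012, median-of-ratios scaling turned them to 0.035 and 0.0087, and array quality weights turned Foxm1 to -0.12, Foxo1 to 0.11, Foxp3 to -0.45 and Foxp4 to -0.10. With 1 library left out the differences ran from -2.01 to 0.74 for Foxa2, -0.71 to 1.52 for Foxd1, -0.20 to 0.19 for Foxj3, -0.15 to 0.15 for Foxm1, -0.57 to 0.91 for Foxn1, -0.12 to 0.055 for Foxo1, -0.92 to 0.41 for Foxo3, -0.26 to 0.65 for Foxp3 and -0.15 to 0.14 for Foxp4. In the alternatives chosen after seeing the data, leaving out WT 2 and WT 3 turned Foxd1 to -0.58, Foxj3 to 0.11, Foxn1 to -1.68, Foxo3 to 0.14, Foxq1 to -0.043, Sox2 to -1.62 and Sox9 to 0.49. WT 1 against ERBB2 KO 2 and ERBB2 KO 3 turned Foxa2 to 0.19, Foxd1 to -0.80, Foxn1 to -0.92, Foxp3 to -0.083, Foxq1 to -0.17 and Sox2 to -0.87. The lone WT library in these fits was assumed to vary like the others. The cause of these turns was not tested. Below 3 reads (0.226 to 0.336 CPM) the depth does not separate absence from a low level.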

Other observations

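Other HMG-box factors were measured beside the SOX genes. All 6 in the table were tested, with 3 higher and 3 lower in ERBB2 KO, none at an unadjusted p below 0.05 and a median difference of -0.01. Lef1, a Wnt effector, was at 1.18, 3.54 and 11.6 CPM across WT 1 to WT 3, against 4.48, 0 and 0 CPM across ERBB2 KO 1 to 3 (-1.50 ± 0.86, limma adjusted p = 0.466). Hbp1, a cell cycle repressor, was at 40.3 CPM in ERBB2 KO 1 and at 5.10 to 7.47 CPM elsewhere.

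Of 12 genes linked to SOX10 in neural crest and Schwann cells, 10 were in the table and 5 were tested, 2 higher and 3 lower in ERBB2 KO. Pmp22, a myelin protein also found in epithelia, was at 61.2, 36.8 and 33.4 CPM across WT 1 to WT 3, against 66.1, 181 and 103 CPM across ERBB2 KO 1 to 3, without overlap (1.32 ± 0.40, limma unadjusted p = 0.0120, adjusted p = 0.336). Of 10 endothelial genes linked to SOXF factors, 7 were in the table and 3 were tested, 1 higher and 2 lower. Vcam1, an adhesion molecule of that list, was at 109 CPM in ERBB2 KO 1 and at 5.61 to 32.8 CPM elsewhere.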
